A study of Homo sapiens with 18 samples.

Results

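The difference in recovery after heat shock between 2 siRNA arms of SW620 cells, a human colon cancer line, was measured in 12 of the 18 RNAseq libraries of the series. Cells were transfected with a scramble siRNA (siCtrl in the labels) or with an siRNA against LONP1 (siLONP1, here siLonp1), which encodes the mitochondrial protease Lonp1. Each arm was sampled after heat shock (HS, 42 °C for 1 h) and after the same heat shock followed by a recovery of 1 h at the normal culture temperature (HS + REC). Each of these 4 groups held 3 libraries. The other 6 libraries, from unheated cells of both arms (Ctrl), were used only where stated. All cells were of 1 line, had been transfected, and the labels distinguish the arms by the siRNA alone. The sources used here do not say which of the study's LONP1 siRNAs was in the RNAseq cells. A gene was tested when it exceeded 1 CPM (CPM is the read count of a gene scaled to the size of its library) in at least 3 of the 12 libraries, which held for 12726 of the 26485 genes counted. The quantity reported is a difference of differences, log2(HS + REC/HS) in siLonp1 cells minus log2(HS + REC/HS) in scramble cells. It is positive where transcripts rose more, or fell less, during recovery with LONP1 silenced, and SE below is its standard error.

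Heat shock releases the transcription factor HSF1 from chaperones, and HSF1 then activates genes for chaperones of the HSP70, HSP90, small HSP and J-domain families while much other transcription is reduced. During recovery the misfolded proteins are refolded or degraded, HSF1 is inactivated again, and genes with short-lived transcripts, among them immediate early genes and their feedback regulators, move away from their heated levels. Lonp1 degrades misfolded and oxidised proteins in the mitochondrial matrix, and the study asked whether it also bears on the HSF1 response.

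The 12 libraries held 30815860 to 47279297 counted reads, and scaling factors lay between 0.953 and 1.05. Colon epithelium markers were abundant, with summed levels of 8384 to 11730 CPM, and 10 of 13 passed the filter. Endothelial markers summed to at most 1.22 CPM, erythroid markers to at most 3.13 CPM and leukocyte markers to at most 22.3 CPM, and no marker of any list passed the test of the difference in recovery. Fibroblast markers, of which 3 of 6 were under 0.1 CPM, summed to 43.8 to 47.4 CPM after HS and 61.1 to 62.5 CPM after HS + REC in scramble cells, and to 25.3 to 29.7 CPM and 45.1 to 46.3 CPM in siLonp1 cells, and their part in the results was not tested. Relative to their group means, genes of high GC content were lower in HS + REC scramble replicate 2 (Spearman rho across genes −0.37) and HS + REC siLonp1 replicate 2 (−0.26), and higher in HS + REC scramble replicate 3 (0.23) and HS + REC siLonp1 replicate 1 (0.23), and the counts without each of them are given with the results.

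The recovery effects of the arms correlated across genes, and 90 genes differed. In scramble cells 1345 genes (10.6% of those tested) rose and 1521 (12%) fell from HS to HS + REC at a false discovery rate (FDR) of 0.05, and in siLonp1 cells 1857 (14.6%) rose and 1676 (13.2%) fell. Across genes the recovery effects of the arms, which share no library, correlated (Pearson r = 0.817, Spearman rho = 0.708, over 12726 genes that are not independent replicates). The difference between arms passed FDR 0.05 in the positive direction for 71 genes (0.558% of those tested) and in the negative direction for 19 (0.149%) by edgeR's quasi-likelihood test with Benjamini-Hochberg adjustment. With a 2-fold limit added, 14 (0.11%) and 2 (0.0157%) remained. Both positive counts include MMP25, which passed the filter on low values through a single group and is given below as a description. At an unadjusted p under 0.05, 879 genes were positive (6.91%) and 318 negative (2.5%), while the median over all genes tested was 0.0043 and 90% of genes lay between −0.26 and 0.41.

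The number of genes past the threshold varied with the libraries. Leaving out 1 library moved the 71 positive genes to 27 or 24 without HS scramble replicate 1 or 2, and to 34, 41 or 21 without HS siLonp1 replicate 1, 2 or 3. It moved them to 40 or 190 without HS + REC scramble replicate 2 or 3, and to 55 or 47 without HS + REC siLonp1 replicate 1 or 2. The 19 negative genes became 8 or 6 without HS scramble replicate 1 or 2, 10 or 6 without HS siLonp1 replicate 2 or 3, and 10 without HS + REC scramble replicate 2 or HS + REC siLonp1 replicate 3. They numbered 24 without HS + REC scramble replicate 3 and 18 without HS + REC siLonp1 replicate 1 or 2. The direction of all 90 stayed the same in each of these 12 fits. The fits reuse most of the libraries that chose the genes, so this is a description.

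**Figure D1:**
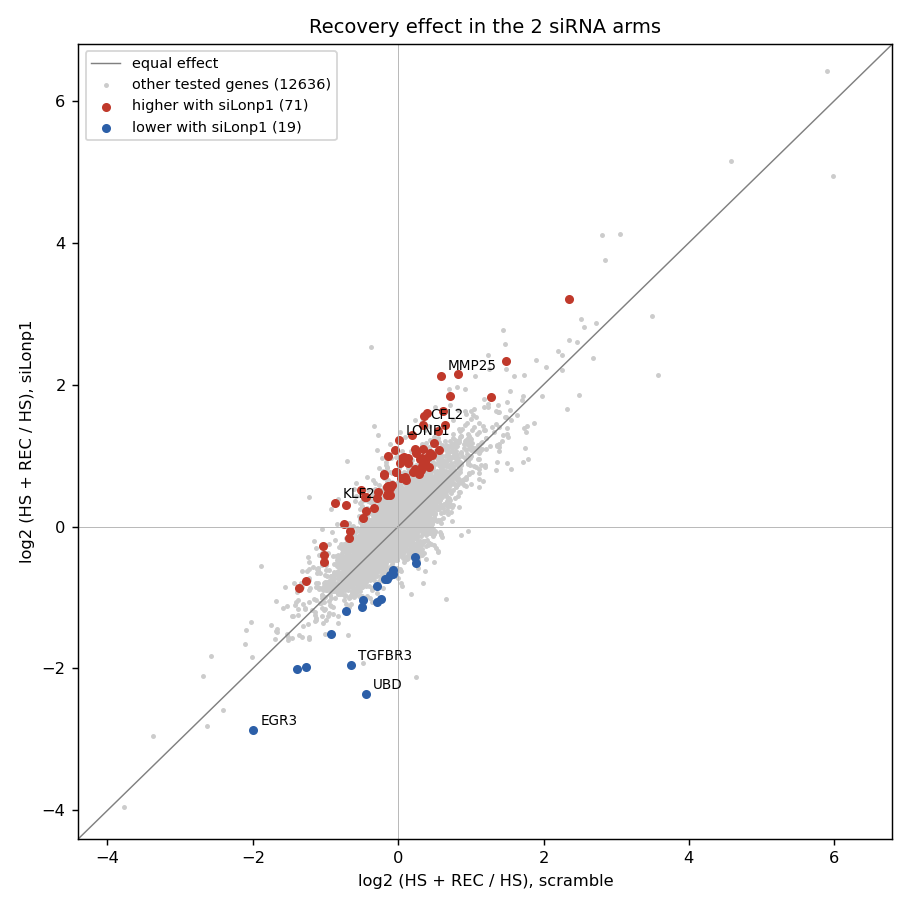
Recovery effect of each of 12726 tested genes, log2(HS + REC/HS), in scramble cells (x axis) and siLonp1 cells (y axis), with 1 point per gene. The 71 genes with a higher effect in siLonp1 cells (red) lie above the line of equal effect and the 19 with a lower effect (blue) lie below it, while most genes (grey) lie near it.

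**Figure D2:**
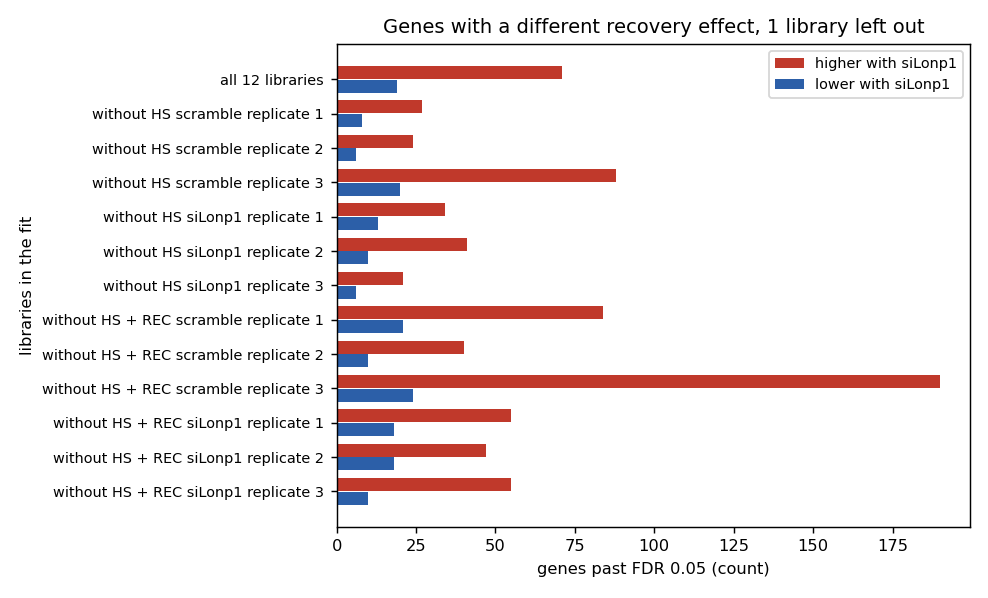
Number of genes past FDR 0.05 (x axis) with all 12 libraries and with each library left out in turn (y axis), for positive differences (red) and negative ones (blue). The positive count ran from 21 without HS siLonp1 replicate 3 to 190 without HS + REC scramble replicate 3, against 71 with all libraries.

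LONP1 itself had the smallest p. LONP1 stood at 218, 226 and 194 CPM after HS and 220.3, 192 and 229.7 CPM after HS + REC in scramble cells, and at 11.6, 11.4 and 11.7 CPM and then 26.6, 25.4 and 28.6 CPM in siLonp1 cells. All siLonp1 libraries were below all scramble libraries at both times, so the silencing matched the labels, and within siLonp1 cells every HS + REC library was above every HS library. The recovery effect was 0.0083 in scramble cells and 1.22 in siLonp1 cells, a difference of 1.21 ± 0.11 (SE, adjusted p = 5.6e-05) that passed in all 12 fits with 1 library left out. In unheated cells LONP1 was at 223, 225 and 215 CPM in scramble cells and 19.4, 22.5 and 19.5 CPM in siLonp1 cells when all 18 libraries were scaled together. LONP1 (chr19:5691834-5720572, minus strand, hg38) shares exon positions with RPL36, a ribosomal protein gene on the opposite strand, whose difference was −0.040 ± 0.12 (SE, adjusted p = 0.97). Whether the counting used strand is not given in the sources used here, so reads of this pair may not be told apart. In bulk libraries a lower share of silenced cells and more LONP1 RNA per cell cannot be told apart either.

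TGFBR3, the betaglycan co-receptor for TGF-beta ligands, had the next smallest p and moved the other way. TGFBR3 stood at 50.1, 47 and 45 CPM after HS and 29.6, 31.8 and 28.9 CPM after HS + REC in scramble cells, and at 25.7, 25.7 and 28.4 CPM and then 7.3, 7.69 and 5.59 CPM in siLonp1 cells. It fell in both arms, by 0.65 on the log2 scale in scramble cells and by 1.95 in siLonp1 cells, and the difference was −1.30 ± 0.13 (SE, adjusted p = 0.00011). The siLonp1 libraries were below the scramble libraries at both times with no overlap. TGFBR3 lies at chr1:91680343-91906335, minus strand. It is among the HSF1 target genes chosen for qRT-PCR on cells of this design, so it is not independent of them. CFL2, the muscle isoform of the actin-severing protein cofilin, followed. CFL2 stood at 8.85, 9.7 and 9.77 CPM after HS and 12.6, 12 and 11.2 CPM after HS + REC in scramble cells, and at 4.1, 3.88 and 3.85 CPM and then 10, 11.6 and 10.5 CPM in siLonp1 cells. The siLonp1 libraries were the lower after HS, where the arms did not overlap, and overlapped the scramble libraries after recovery, with a difference of 1.10 ± 0.13 (SE, adjusted p = 0.00053). ZC3H12A, an endonuclease (regnase-1) that cuts inflammatory mRNAs, had the next smallest p among genes with a negative difference. ZC3H12A stood at 39.5, 39.5 and 36.2 CPM after HS and 15.2, 13.6 and 15 CPM after HS + REC in scramble cells, and at 51.2, 51.2 and 53.6 CPM and then 13.2, 12.2 and 13.2 CPM in siLonp1 cells. It was higher in siLonp1 cells after HS, fell in both arms, and after recovery lay just below scramble cells (−0.18, adjusted p = 0.054), with a difference of −0.62 ± 0.10 (SE, adjusted p = 0.011). TGFBR3, CFL2 and ZC3H12A each kept the call in all 12 fits with 1 library left out.

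The promoters of these 4 genes, the 2 with the smallest p in each direction, are shown to let their core sequences be compared (RefSeq, GRCh38.p14, each on the strand of its gene, 250 bases before to 50 after the start), with any motif match in capitals.
LONP1, chr19:5720097-5720396: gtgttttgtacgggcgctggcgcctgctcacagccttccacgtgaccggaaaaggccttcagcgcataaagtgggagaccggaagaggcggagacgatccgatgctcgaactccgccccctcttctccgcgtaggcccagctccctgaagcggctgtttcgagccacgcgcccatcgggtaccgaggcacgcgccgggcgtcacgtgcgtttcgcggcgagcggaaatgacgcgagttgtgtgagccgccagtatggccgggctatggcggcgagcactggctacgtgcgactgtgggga
CFL2, chr14:34714544-34714843: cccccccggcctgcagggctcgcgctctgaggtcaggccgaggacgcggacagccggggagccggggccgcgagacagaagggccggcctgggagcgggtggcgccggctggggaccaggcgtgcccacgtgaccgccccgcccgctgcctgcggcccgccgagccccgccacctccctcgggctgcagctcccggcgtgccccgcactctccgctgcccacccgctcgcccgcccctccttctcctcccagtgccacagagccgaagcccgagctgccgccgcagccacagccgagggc
TGFBR3, chr1:91886102-91886401: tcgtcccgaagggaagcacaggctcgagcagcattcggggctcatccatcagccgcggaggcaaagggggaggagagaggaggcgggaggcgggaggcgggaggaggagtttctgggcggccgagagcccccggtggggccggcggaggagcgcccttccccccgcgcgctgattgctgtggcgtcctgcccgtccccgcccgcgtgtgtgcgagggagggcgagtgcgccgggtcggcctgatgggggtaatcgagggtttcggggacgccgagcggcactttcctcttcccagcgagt
ZC3H12A, chr1:37474330-37474629: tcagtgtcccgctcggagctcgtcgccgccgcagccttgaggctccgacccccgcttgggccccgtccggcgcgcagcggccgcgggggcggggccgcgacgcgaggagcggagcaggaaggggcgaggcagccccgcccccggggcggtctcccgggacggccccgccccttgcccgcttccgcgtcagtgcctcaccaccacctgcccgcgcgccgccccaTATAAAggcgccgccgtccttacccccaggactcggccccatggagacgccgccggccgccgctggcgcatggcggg
Both strands were searched for a 2-unit heat shock element (GAANNTTC or TTCNNGAA), the cAMP response element TGACGTCA, the AP-1 site TGANTCA, the amino acid response element TGATGCAA, the TATA box TATAAA and the serum response element. The only match in the 4 windows was a TATA box in ZC3H12A, which starts at −27 from the annotated start. A TATA box was in 9 of the 57 promoters found for the 71 positive genes (15.8%) and 3 of the 16 found for the 19 negative genes (18.8%), against 5.4% of the 10118 promoters found for genes tested and 12% of all 27305 in the table. The heat shock element was in 4 (7.02%) and 2 (12.5%), against 9.74% of those of genes tested and 13.7% of all. A match is a description of letters, and an absence covers this window only. For each gene a single annotated start was used, and other starts were not searched. The TGFBR3 window lies inside the gene span given above.

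The 71 positive genes fell into a few patterns, which describe genes chosen by the difference itself. Between HS and HS + REC, 30 were not called in scramble cells and rose in siLonp1 cells, 24 rose in both arms, 8 fell in scramble cells and were not called in siLonp1 cells, 5 fell in scramble cells and rose in siLonp1 cells, and 4 fell in both. Seen as siLonp1 against scramble, 20 were lower with siLonp1 after HS and not called after recovery, 14 were lower after HS and higher after recovery, 15 went from not called to higher, 16 were higher at both times and 6 lower at both. Their median siLonp1 effect went from −0.36 after HS to 0.40 after HS + REC. Over all genes tested, siLonp1 was higher than scramble for 25.1% and lower for 25.6% after HS, and higher for 25.9% and lower for 23.9% after HS + REC. In unheated cells 33 of the 71 were higher and 18 lower with siLonp1, where 26.3% of 12832 genes in the fit of all 18 libraries were higher and 22.9% lower.

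**Figure D3:**
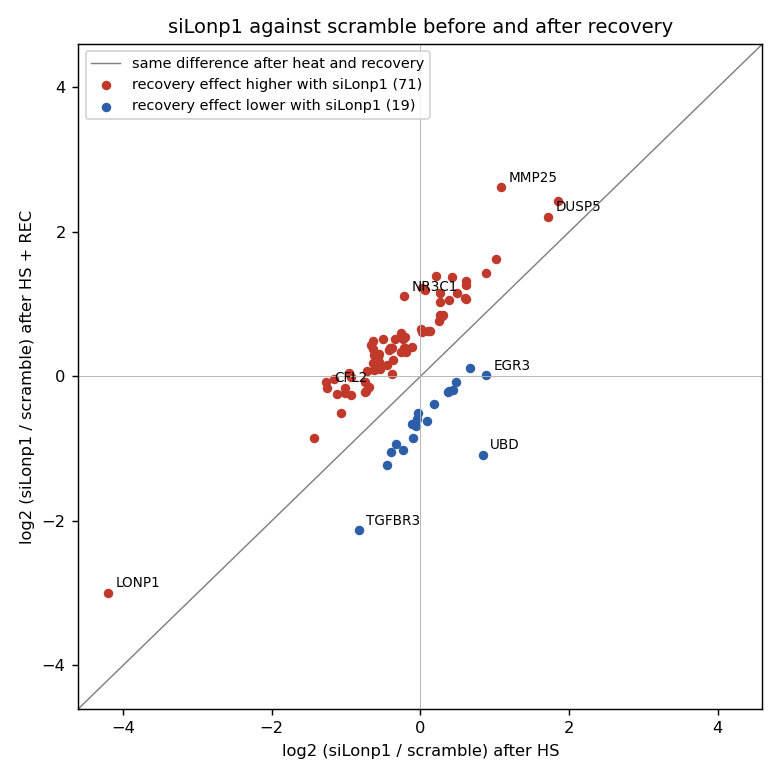
Difference between siLonp1 and scramble cells, log2, after HS (x axis) and after HS + REC (y axis) for the 90 genes with a different recovery effect, red for positive and blue for negative. The positive genes spread from a median of −0.36 after HS to 0.40 after HS + REC, and the negative ones from −0.037 to −0.61, while LONP1 stood apart at −4.20 and −2.99.

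ZBTB45, ZNF367 and ZNF827 were lower with siLonp1 after HS and were not called apart from scramble after recovery. ZBTB45 stood at 7.57, 7.7 and 6.28 CPM after HS and 12.4, 9.69 and 13.4 CPM after HS + REC in scramble cells, and at 3.22, 3.06 and 3.41 CPM and then 12.1, 9.59 and 12.9 CPM in siLonp1 cells. ZBTB45, a BTB zinc finger protein, thus rose in both arms, and its arms overlapped after recovery and not after HS, with a difference of 1.12 ± 0.19 (SE, adjusted p = 0.011). ZNF367 stood at 46, 49.9 and 44 CPM after HS and 41.6, 38 and 42.3 CPM after HS + REC in scramble cells, and at 23.3, 25.8 and 24.4 CPM and then 35.3, 41.8 and 44.6 CPM in siLonp1 cells. ZNF367 did not pass in scramble cells (−0.20) and rose by 0.73 in siLonp1 cells, with a difference of 0.93 ± 0.12 (SE, adjusted p = 0.0015). ZNF827 stood at 17.1, 16.6 and 14.3 CPM after HS and 12.8, 12.5 and 10.2 CPM after HS + REC in scramble cells, and at 6.89, 8.47 and 8.4 CPM and then 10.9, 10.5 and 10.3 CPM in siLonp1 cells. ZNF827 fell in scramble cells (−0.44) and rose in siLonp1 cells (0.42), with a difference of 0.85 ± 0.15 (SE, adjusted p = 0.013). TFAP4, a basic helix-loop-helix factor, fell by 0.30 in scramble cells and rose by 0.40 in siLonp1 cells, with a difference of 0.70 (adjusted p = 0.021). CMYA5, a muscle protein of the sarcomere, and SP5, a WNT-responsive factor of the SP family, had differences of 1.19 (adjusted p = 0.013) and 0.93 (adjusted p = 0.022). ZBTB45, ZNF367 and ZNF827 kept the call in all 12 fits with 1 library left out. TFAP4 lost its call when any 1 of HS scramble replicates 1 or 2, HS siLonp1 replicates 1 or 3 or HS + REC siLonp1 replicates 1 or 3 was left out (log2 0.61 to 0.70, adjusted p = 0.053 to 0.074). CMYA5 lost its call without HS siLonp1 replicate 3 (log2 1.15, adjusted p = 0.058). SP5 lost its call when any 1 of HS scramble replicate 2, HS siLonp1 replicates 1 or 3, HS + REC scramble replicate 2 or HS + REC siLonp1 replicates 1 or 3 was left out (log2 0.80 to 0.91, adjusted p = 0.053 to 0.075).

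Other genes overlapped between arms after HS and were higher with siLonp1 after recovery. NR3C1 stood at 1.3, 0.967 and 1.16 CPM after HS and 2.14, 1.87 and 2.06 CPM after HS + REC in scramble cells, and at 1.09, 0.932 and 0.92 CPM and then 3.85, 5.01 and 4.3 CPM in siLonp1 cells. NR3C1, the glucocorticoid receptor, rose in both arms and more so with siLonp1, where the recovered libraries did not overlap those of scramble cells, and the difference was 1.33 ± 0.24 (SE, adjusted p = 0.013). KRTAP2-3 stood at 5.19, 4.64 and 5.84 CPM after HS and 8.21, 6.19 and 6.09 CPM after HS + REC in scramble cells, and at 6.2, 4.51 and 5.1 CPM and then 17.5, 14.2 and 16.4 CPM in siLonp1 cells. KRTAP2-3, a hair keratin-associated protein of a multigene family whose members may share reads, rose by 1.60 with siLonp1 and its difference was 1.21 ± 0.19 (SE, adjusted p = 0.0098). KLF2 stood at 4.2, 4.82 and 4.28 CPM after HS and 1.71, 2.3 and 3.26 CPM after HS + REC in scramble cells, and at 5.44, 5.13 and 4.77 CPM and then 7.93, 5.99 and 5.29 CPM in siLonp1 cells. KLF2, a Krüppel-like factor, fell in scramble cells and did not pass in siLonp1 cells (0.33), with a difference of 1.19 ± 0.25 (SE, adjusted p = 0.033). P2RY2 stood at 2.04, 1.91 and 1.97 CPM after HS and 1.76, 1.63 and 1.97 CPM after HS + REC in scramble cells, and at 1.87, 2.51 and 1.81 CPM and then 3.43, 4.88 and 4.07 CPM in siLonp1 cells. P2RY2, a receptor for extracellular ATP and UTP, rose by 1.00 with siLonp1, while its scramble effect of −0.14 did not pass, and the difference was 1.14 ± 0.23 (SE, adjusted p = 0.027). KRTAP2-3 kept the call in all 12 fits with 1 library left out. NR3C1 lost its call when any 1 of HS scramble replicate 1 or HS siLonp1 replicate 3 was left out (log2 1.21 to 1.28, adjusted p = 0.051 to 0.055). KLF2 lost its call when any 1 of HS scramble replicates 1 or 2, HS siLonp1 replicates 1, 2 or 3, HS + REC scramble replicate 2 or HS + REC siLonp1 replicates 1 or 2 was left out (log2 0.96 to 1.24, adjusted p = 0.054 to 0.11). P2RY2 lost its call when any 1 of HS scramble replicates 1 or 2, HS siLonp1 replicates 1 or 3, HS + REC scramble replicate 2 or HS + REC siLonp1 replicates 2 or 3 was left out (log2 1.00 to 1.16, adjusted p = 0.052 to 0.093).

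Of the 90 genes, 1 passed the filter on low values through a single group, MMP25, a membrane-anchored matrix metalloproteinase, so its difference is given as a description. MMP25 stood at 0.404, 0.528 and 0.312 CPM after HS and 0.684, 0.672 and 0.567 CPM after HS + REC in scramble cells, and at 0.785, 0.958 and 0.97 CPM and then 3.73, 4.07 and 4.05 CPM in siLonp1 cells. It exceeded 1 CPM in the HS + REC siLonp1 libraries alone, was higher with siLonp1 at both times with no overlap between arms, and its difference was 1.54. Its exons share positions with MMP25-AS1 on the opposite strand. With a trend with GC content removed the difference of MMP25 was 1.31, and it did not pass. It also did not pass when any 1 of HS scramble replicates 1 or 2 or HS siLonp1 replicates 1 or 3 was left out (log2 1.32 to 1.59). ZNF865, ZFPM1 and ZNF579, zinc finger proteins (ZFPM1 is the GATA cofactor FOG1), had differences of 1.02 (adjusted p = 0.025), 0.87 (adjusted p = 0.037) and 1.12 (adjusted p = 0.04). ZNF865 and ZFPM1 fell in scramble cells (−0.51 and −0.45) and rose in siLonp1 cells (0.52 and 0.42), and both lost the call when the GC trend was removed (log2 0.58 and 0.55). ZNF865 lost its call when any 1 of HS scramble replicate 2, HS siLonp1 replicates 1, 2 or 3, HS + REC scramble replicate 2 or HS + REC siLonp1 replicates 1 or 3 was left out (log2 0.86 to 1.07, adjusted p = 0.052 to 0.091). ZFPM1 lost its call when any 1 of HS scramble replicates 1 or 2, HS siLonp1 replicates 1, 2 or 3, HS + REC scramble replicates 1 or 2 or HS + REC siLonp1 replicates 1 or 3 was left out (log2 0.78 to 0.93, adjusted p = 0.073 to 0.13). ZNF579 lost its call when any 1 of HS scramble replicates 1, 2 or 3, HS siLonp1 replicates 2 or 3, HS + REC scramble replicates 1 or 2 or HS + REC siLonp1 replicates 1, 2 or 3 was left out (log2 0.98 to 1.23, adjusted p = 0.052 to 0.14). ENC1 stood at 72.9, 69.5 and 67.2 CPM after HS and 56.5, 56.9 and 53.2 CPM after HS + REC in scramble cells, and at 84, 83.9 and 83.9 CPM and then 89.4, 103 and 108 CPM in siLonp1 cells. ENC1, an actin-binding kelch protein, fell in scramble cells and rose in siLonp1 cells, with a difference of 0.59 ± 0.10 (SE, adjusted p = 0.011) that held in all 12 fits with 1 library left out.

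**Figure D4:**
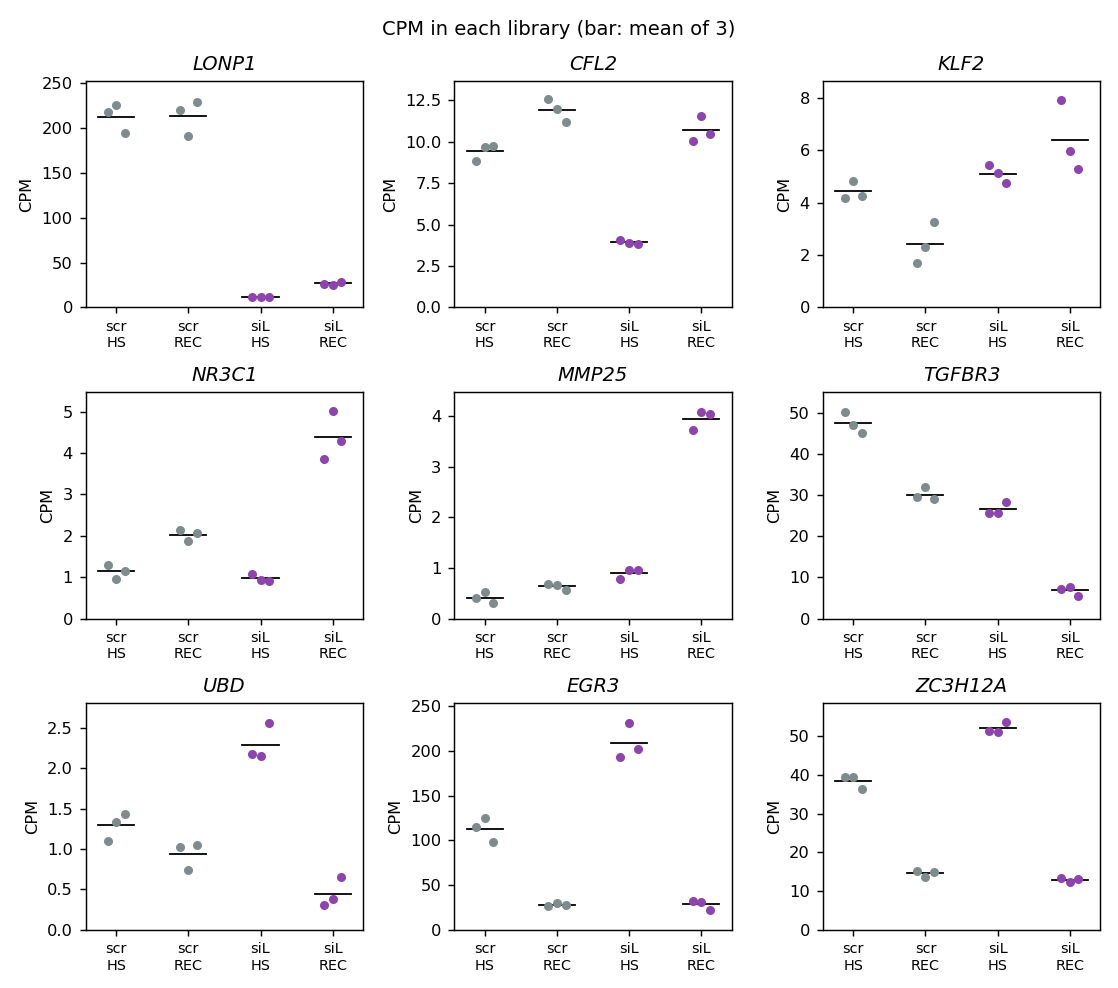
CPM (y axis, linear from 0) of 9 genes in each library, with scramble (scr) in grey and siLonp1 (siL) in purple after HS and after HS + REC (REC), 3 points per group and a bar at their mean. LONP1, CFL2, NR3C1 and MMP25 rose more with siLonp1, KLF2 fell in scramble cells and did not pass in siLonp1 cells, and TGFBR3, UBD, EGR3 and ZC3H12A fell more with siLonp1.

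The rule for naming left 55 of the 90 genes unnamed, 48 positive and 7 negative, and those described next were chosen after their values were seen because they kept the call in all 12 fits with 1 library left out. WEE1 stood at 69.8, 70.1 and 68.2 CPM after HS and 67.7, 65.7 and 69.5 CPM after HS + REC in scramble cells, and at 49.3, 55.4 and 51.8 CPM and then 84.6, 101 and 80.7 CPM in siLonp1 cells. WEE1, the kinase that holds CDK1 inactive before mitosis, was lower with siLonp1 after HS and higher after recovery, without overlap at either time, with a difference of 0.81 ± 0.11 (SE, adjusted p = 0.0025). IRS2 stood at 31.1, 36.7 and 27.1 CPM after HS and 26.7, 25.6 and 30.5 CPM after HS + REC in scramble cells, and at 39.5, 46.8 and 42 CPM and then 67.2, 74.9 and 72.1 CPM in siLonp1 cells. IRS2, an adaptor of the insulin and IGF receptors, was higher with siLonp1 at both times and rose by 0.74 with siLonp1, while its scramble effect of −0.20 did not pass, with a difference of 0.94 ± 0.14 (SE, adjusted p = 0.0047). RAI1 stood at 39.9, 42 and 32.6 CPM after HS and 64.9, 52.9 and 58.2 CPM after HS + REC in scramble cells, and at 22.2, 26.1 and 25.8 CPM and then 69.1, 74.6 and 85.3 CPM in siLonp1 cells. RAI1, a chromatin-associated protein, rose in both arms, from a lower level with siLonp1 to a higher one, with a difference of 1.01 ± 0.15 (SE, adjusted p = 0.0036). RAI1 shares exon positions with SREBF1 on the opposite strand (difference 0.062, adjusted p = 0.95). The F-box protein FBXO46 (0.79, adjusted p = 0.0025), the forkhead factor FOXC1 (0.76, adjusted p = 0.011) and the zinc finger proteins ZNF551, ZNF398 and ZNF180 (0.77, 0.61 and 0.60, adjusted p = 0.011, 0.0074 and 0.012) were the other positive ones. LMCD1, a LIM domain protein, was the negative one. LMCD1 stood at 60.8, 61.7 and 63.2 CPM after HS and 56.2, 50.8 and 60.3 CPM after HS + REC in scramble cells, and at 82.5, 82.5 and 78.3 CPM and then 53.1, 45.8 and 47.1 CPM in siLonp1 cells. It was higher with siLonp1 after HS and lower after recovery, with a difference of −0.59 ± 0.10 (SE, adjusted p = 0.013).

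ABTB2, an ankyrin repeat and BTB domain protein, and ANXA1, the phospholipid-binding annexin A1, were the positive genes outside the rule with the largest rises in scramble cells, and were also chosen after their values were seen. ABTB2 stood at 30.6, 30.4 and 23.2 CPM after HS and 131, 143 and 157 CPM after HS + REC in scramble cells, and at 21.1, 23.3 and 25.9 CPM and then 233, 228 and 189.7 CPM in siLonp1 cells. It rose by 2.35 in scramble and 3.21 in siLonp1 cells, with a difference of 0.86 ± 0.15 (SE, adjusted p = 0.013). ANXA1 stood at 107, 105 and 107 CPM after HS and 249.9, 278 and 243 CPM after HS + REC in scramble cells, and at 71.7, 61 and 63.9 CPM and then 232, 231 and 233 CPM in siLonp1 cells. It rose by 1.28 and 1.82 and the arms ended closer together than after HS, with a difference of 0.55 ± 0.10 (SE, adjusted p = 0.013). ABTB2 lost its call without HS scramble replicate 2 (log2 0.80, adjusted p = 0.052). ANXA1 lost its call without HS siLonp1 replicate 3 (log2 0.53, adjusted p = 0.058).

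Of the 19 negative genes, 9 fell in both arms, further with siLonp1, and 10 fell with siLonp1 while their scramble effect did not pass. As siLonp1 against scramble, 8 went from not called after HS to lower after recovery, 4 were lower at both times, 4 went from higher to not called and 3 from higher to lower. UBD stood at 1.1, 1.34 and 1.44 CPM after HS and 1.03, 0.744 and 1.05 CPM after HS + REC in scramble cells, and at 2.18, 2.15 and 2.56 CPM and then 0.303, 0.379 and 0.658 CPM in siLonp1 cells. UBD, the ubiquitin-like protein FAT10, had the largest negative difference, −1.92 ± 0.33 (SE, adjusted p = 0.011), at about 1 CPM. It was above scramble after HS and below it after recovery, without overlap at either time. UBD shares exon positions with GABBR1 on the same strand (difference −0.17, adjusted p = 0.90). EGR3 stood at 115, 125 and 97.9 CPM after HS and 27.1, 29.4 and 28.2 CPM after HS + REC in scramble cells, and at 193, 231 and 202 CPM and then 32.4, 31.5 and 21.8 CPM in siLonp1 cells. EGR3, an early growth response factor, was higher with siLonp1 after HS and fell to overlapping levels in both arms, with a difference of −0.87 ± 0.17 (SE, adjusted p = 0.02). In unheated cells it was at 8.17, 7.87 and 7.52 CPM in scramble cells and 15.9, 18.1 and 15.1 CPM in siLonp1 cells. RSRP1 stood at 66.4, 72.6 and 77.3 CPM after HS and 27.5, 30.6 and 31.3 CPM after HS + REC in scramble cells, and at 78.3, 76.1 and 75.9 CPM and then 21.9, 19.3 and 17.2 CPM in siLonp1 cells. RSRP1, an arginine- and serine-rich protein, fell in both arms and ended lower with siLonp1, with a difference of −0.70 ± 0.12 (SE, adjusted p = 0.011). Its exons share positions with RHD on the opposite strand.

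The rule also named these negative genes. SCML1 and SCML2, Polycomb-related proteins with an SPM domain, had differences of −0.65 (adjusted p = 0.016) and −0.78 (adjusted p = 0.021). KPNA5, an importin alpha of nuclear import, had −0.78 (adjusted p = 0.021), and KLHL15, a substrate adaptor of a CUL3 ubiquitin ligase, had −0.64 (adjusted p = 0.019). GOLGA8B, a golgin of a family with near-identical copies (GOLGA8A −0.44, adjusted p = 0.61), had −0.76 (adjusted p = 0.044). RSRP1 and UBD kept the call in all 12 fits with 1 library left out. EGR3 lost its call when any 1 of HS scramble replicate 1, HS siLonp1 replicates 2 or 3 or HS + REC scramble replicate 2 was left out (log2 −0.89 to −0.79, adjusted p = 0.051 to 0.064). SCML1 lost its call when any 1 of HS scramble replicates 1 or 2 was left out (log2 −0.61 to −0.60, adjusted p = 0.055 to 0.064). SCML2 lost its call when any 1 of HS scramble replicate 2, HS siLonp1 replicates 2 or 3, HS + REC scramble replicate 2 or HS + REC siLonp1 replicate 3 was left out (log2 −0.79 to −0.72, adjusted p = 0.051 to 0.074). KPNA5 lost its call when any 1 of HS scramble replicates 1 or 2, HS siLonp1 replicate 3, HS + REC scramble replicate 2 or HS + REC siLonp1 replicate 3 was left out (log2 −0.81 to −0.67, adjusted p = 0.055 to 0.074). KLHL15 lost its call when any 1 of HS scramble replicates 1 or 2, HS siLonp1 replicates 2 or 3, HS + REC scramble replicate 2 or HS + REC siLonp1 replicate 3 was left out (log2 −0.66 to −0.57, adjusted p = 0.053 to 0.067). GOLGA8B lost its call when any 1 of HS scramble replicates 1, 2 or 3, HS siLonp1 replicates 1, 2 or 3, HS + REC scramble replicate 2 or HS + REC siLonp1 replicates 1 or 3 was left out (log2 −0.84 to −0.67, adjusted p = 0.058 to 0.15).

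No gene for a cytosolic heat shock chaperone passed the test of the difference between arms. HSF1 changed by −0.027 in scramble and 0.029 in siLonp1 cells, a difference of 0.056 (95% interval −0.17 to 0.28, adjusted p = 0.95), and HSF2 by −0.47 and −0.51, a difference of −0.039 (−0.27 to 0.19, adjusted p = 0.97). Of 18 tested genes for cytosolic HSP70, HSP110, HSP90 and small HSP chaperones, none passed by edgeR's quasi-likelihood test and none had an unadjusted p under 0.05, with a median of −0.052. None passed by DESeq2 or edgeR's likelihood ratio test. Of all genes tested, 0.558% passed the quasi-likelihood test in the positive direction and 0.149% in the negative. A list of this size would hold few or no passing genes at those shares. At an unadjusted p under 0.05 the shares of all genes were 6.91% positive and 2.5% negative. Among 35 J-domain and BAG cochaperones none passed by the quasi-likelihood test and 1 by each of the other two (4 unadjusted, median −0.023), the furthest from 0 being DNAJC27 at 0.83 (adjusted p = 0.055) and DNAJB4 at −0.44 (adjusted p = 0.46). Among 32 HSP90 cochaperones and other HSF1 targets, a list that holds 3 of the HSF1 targets chosen for qRT-PCR, 1 passed, TGFBR3 (3 unadjusted, median −0.0019). Of the 85 members of these lists, 64 had a 95% interval within 0.5 on either side of 0 (75.3%, against 71.0% of genes tested), so a difference of that size was bounded for those and not for the others.

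HSPA1A stood at 2024, 2009.9 and 1855 CPM after HS and 3207, 3124 and 3695 CPM after HS + REC in scramble cells, and at 2090.1, 2051 and 2319 CPM and then 3809, 3192 and 2766 CPM in siLonp1 cells. HSPA1A, the main inducible HSP70, rose in both arms (0.77 and 0.60), with overlapping libraries after recovery and a difference of −0.17 (95% interval −0.45 to 0.11). Its copy HSPA1B is near-identical and can share its reads. HSPA6 stood at 1447, 1446 and 1436 CPM after HS and 441, 613 and 732 CPM after HS + REC in scramble cells, and at 1649.7, 1621 and 1684 CPM and then 987, 763 and 467 CPM in siLonp1 cells. HSPA6, the strictly heat-inducible HSP70, fell in both arms (−1.28 and −1.16), again with overlap after recovery, and its difference was 0.12 (−0.43 to 0.67). HSP90AA1, the inducible cytosolic HSP90, rose by 0.66 and 0.59 (difference −0.072, −0.32 to 0.18), and HSPA4, an HSP110 family nucleotide exchange factor, by 0.74 and 0.66 (−0.084, −0.28 to 0.11). Of the HSF1 target genes chosen for qRT-PCR, which number 9, 7 had a difference below 0 and 2 above, and TGFBR3 passed. The widest interval was that of CREB3L3, a membrane-bound liver-enriched factor under 3 CPM in every library, at −1.67 to 0.34 around −0.66.

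With the chaperones, 27 gene lists were examined, of which 26 had tested members and 9 had a member that passed. The members that passed were 14 of 794 over all lists, against 0.558% and 0.149% of all tested genes in the 2 directions. In the list of mitochondrial chaperones and proteases, LONP1 passed and the other 28 did not, and among 35 integrated stress response genes VLDLR, a lipoprotein receptor, passed. VLDLR stood at 5.82, 6.2 and 5.65 CPM after HS and 16.2, 18.3 and 15.3 CPM after HS + REC in scramble cells, and at 3.37, 4.43 and 4.18 CPM and then 19.4, 23 and 17.6 CPM in siLonp1 cells. It rose in both arms and more with siLonp1, with a difference of 0.84 ± 0.17 (SE, adjusted p = 0.024). VLDLR lost its call when any 1 of HS scramble replicates 1 or 2, HS siLonp1 replicates 1 or 3 or HS + REC siLonp1 replicate 2 was left out (log2 0.72 to 0.87, adjusted p = 0.052 to 0.079). No member passed among mitochondrial ribosomal proteins (77 tested, median −0.034), respiratory chain subunits (80, median −0.051), proteasome subunits (46, median −0.053), ER unfolded protein response genes (25, median −0.021), glycolysis genes (23, median −0.067), NRF2 targets (19, median 0.012) or growth arrest genes and p53 targets (22, median 0.046). The same held for NF-kB targets (21, median −0.028), metallothioneins and MTF1 targets (11, median 0.076), nuclear lncRNAs and paraspeckle proteins (15, median 0.0015), histone genes (7, median −0.10), ubiquitin and autophagy receptors (20, median −0.045), circadian clock genes (17, median 0.13) and mitotic genes (28, median −0.0044). Of 77 cytosolic ribosomal protein genes, 10 lay above 0 and none passed (median −0.085, range −0.45 to 0.088). Their median ran from −0.17 without HS + REC siLonp1 replicate 1 to −0.037 without HS siLonp1 replicate 1. That of the clock genes fell to 0.055 without HS + REC siLonp1 replicate 1 and was 0.21 with the GC trend removed. Over the alternatives run the median took both signs for 13 of the 26 lists. At an unadjusted p under 0.05 these 15 lists held between 0 and 5 genes each, with 5 for growth arrest genes and p53 targets and 4 for clock genes, where 6.91% of all genes tested were positive and 2.5% negative. By DESeq2 and by the likelihood ratio test 1 member of the growth arrest and p53 list passed, and none of the other 14 lists had a call.

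**Figure D5:**
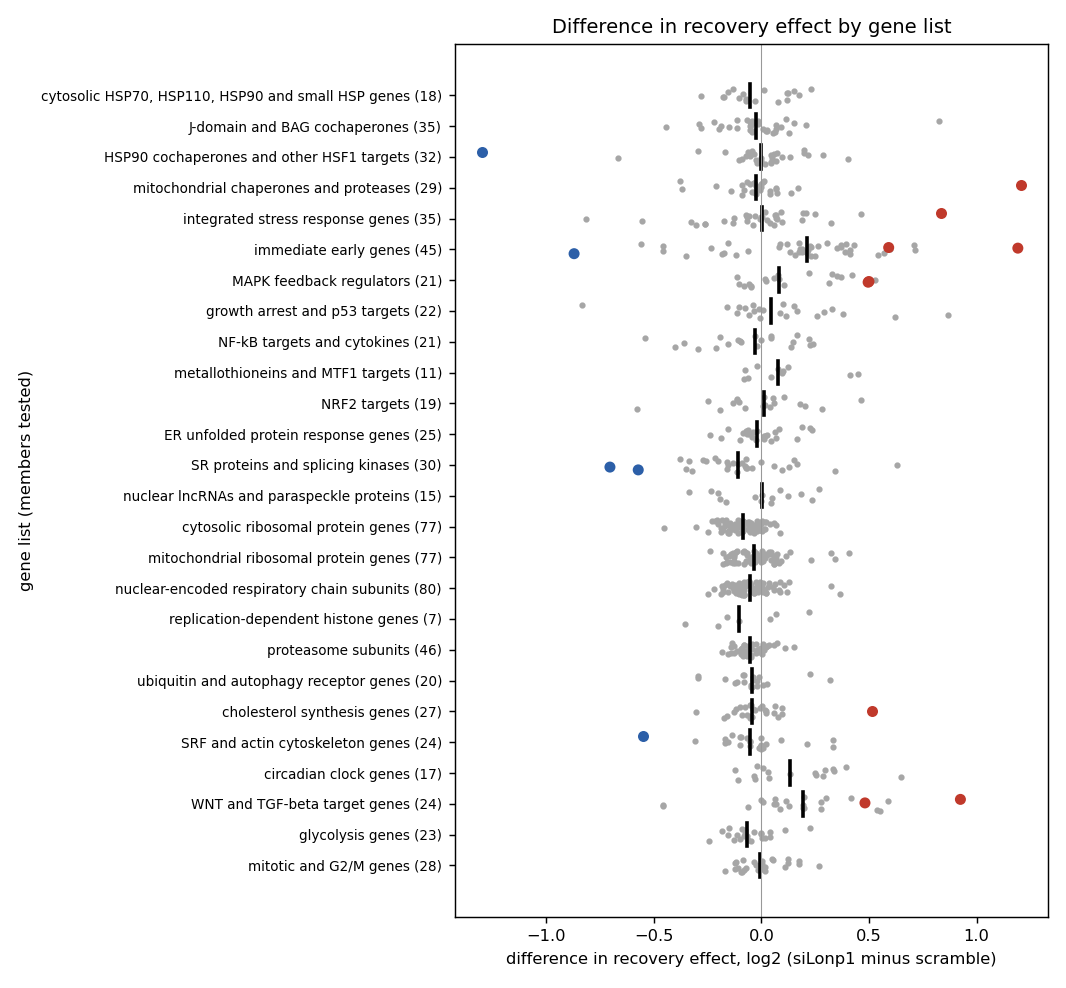
Difference in recovery effect, log2 (x axis), for the tested members of 26 gene lists (y axis), with a black bar at each median, red for members past FDR 0.05 in the positive direction, blue in the negative and grey for those that did not pass. The median was 0.21 for immediate early genes and 0.19 for WNT and TGF-beta target genes, −0.11 for SR proteins and splicing kinases, and close to 0 for the 3 chaperone lists at the top.

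Immediate early genes, transcribed within minutes of a stimulus, gave a median difference of 0.21 over 45 tested genes, 34 of them above 0, against 0.0043 over all genes. Of these, 3 passed, KLF6 and KLF2 positive and EGR3 negative (4 by DESeq2 and 5 by the likelihood ratio test). In all 20 had an unadjusted p under 0.05, 15 of them positive. At that limit 6.91% of all genes tested were positive and 2.5% negative. Of all genes tested, 51.2% lay above 0, 0.558% passed in the positive direction and 0.149% in the negative. The list's median stayed above 0 under every alternative run, from 0.079 without siLonp1 recovery replicate 1 to 0.27. KLF6 stood at 59.4, 58 and 60.7 CPM after HS and 88, 79.9 and 74.1 CPM after HS + REC in scramble cells, and at 57.3, 61.6 and 61.1 CPM and then 125, 128 and 116 CPM in siLonp1 cells. KLF6, a Krüppel-like factor, overlapped between arms after HS, rose in both, and ended higher with siLonp1 without overlap, with a difference of 0.59 ± 0.10 (SE, adjusted p = 0.011). FOS and EGR1, the best known of the group, had recovery effects of −3.77 and −3.37 in scramble cells and −3.95 and −2.96 in siLonp1 cells, and their differences of −0.17 (adjusted p = 0.87) and 0.41 (adjusted p = 0.33) did not pass. Among 21 MAPK feedback regulators, 15 lay above 0 and 2 passed, the ERK phosphatases DUSP6 and DUSP5 (4 by DESeq2 and 4 by the likelihood ratio test). The shares of all genes tested were again 51.2% above 0, 0.558% passing positive and 0.149% passing negative. At an unadjusted p under 0.05, 7 of the 21 were positive and 0 negative. The list's median was 0.082, and ran from 0.040 with the GC trend removed to 0.17 without HS + REC siLonp1 replicate 3. DUSP6 stood at 187, 182 and 165 CPM after HS and 69, 71.6 and 67.2 CPM after HS + REC in scramble cells, and at 194, 195 and 193 CPM and then 105, 106 and 109 CPM in siLonp1 cells. DUSP6 fell in both arms, less with siLonp1, with a difference of 0.50 ± 0.09 (SE, adjusted p = 0.013), and the recovered arms did not overlap. DUSP5 likewise fell by 1.27 in scramble and 0.77 in siLonp1 cells, with a difference of 0.50 (adjusted p = 0.035). KLF6 kept the call in all 12 fits with 1 library left out. DUSP6 lost its call when any 1 of HS scramble replicate 1 or HS siLonp1 replicate 3 was left out (log2 0.46 to 0.50, adjusted p = 0.051). DUSP5 lost its call when any 1 of HS scramble replicates 1 or 2, HS siLonp1 replicates 1, 2 or 3, HS + REC scramble replicates 1 or 2 or HS + REC siLonp1 replicates 1 or 2 was left out (log2 0.39 to 0.53, adjusted p = 0.053 to 0.12).

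In the list of 24 WNT and TGF-beta target genes the median was 0.19, with 20 above 0, and SP5 and PMEPA1, a TGF-beta-induced membrane protein, passed (3 by DESeq2 and 3 by the likelihood ratio test). At an unadjusted p under 0.05, 7 were positive and 1 negative. Of all genes tested, 51.2% lay above 0, 0.558% passed in the positive direction and 0.149% in the negative. The median of the WNT and TGF-beta list was lowest, at 0.12, without siLonp1 recovery replicate 3. PMEPA1 rose by 0.32 in scramble and 0.80 in siLonp1 cells, with a difference of 0.48 (adjusted p = 0.032). Among 24 SRF and actin genes VCL, the focal adhesion protein vinculin, passed in the negative direction. VCL stood at 459, 443 and 389.9 CPM after HS and 379, 347 and 331 CPM after HS + REC in scramble cells, and at 671, 677 and 704 CPM and then 350.2, 389 and 406 CPM in siLonp1 cells. It was higher with siLonp1 after HS and near the scramble level after recovery, with a difference of −0.55 ± 0.11 (SE, adjusted p = 0.019). Among 30 SR proteins and splicing kinases, 7 lay above 0, the median was −0.11, and RSRP1 and CLK4, a kinase of SR proteins, passed (5 by DESeq2 and 5 by the likelihood ratio test). At an unadjusted p under 0.05, 8 of the 30 were negative and 1 positive, against 2.5% and 6.91% of all genes tested. CLK4 changed by −0.11 and −0.69, with a difference of −0.57 (adjusted p = 0.035). PMEPA1 lost its call when any 1 of HS scramble replicates 1 or 2, HS siLonp1 replicates 1, 2 or 3, HS + REC scramble replicates 1 or 2 or HS + REC siLonp1 replicates 1, 2 or 3 was left out (log2 0.43 to 0.51, adjusted p = 0.054 to 0.12). VCL lost its call when any 1 of HS scramble replicate 2 or HS siLonp1 replicate 3 was left out (log2 −0.57 to −0.53, adjusted p = 0.052 to 0.067). CLK4 lost its call when any 1 of HS scramble replicates 1 or 2, HS siLonp1 replicates 1 or 3, HS + REC scramble replicate 2 or HS + REC siLonp1 replicates 2 or 3 was left out (log2 −0.61 to −0.50, adjusted p = 0.052 to 0.12).

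Genes with a strong recovery effect averaged over both arms were also examined. The average and the difference are orthogonal contrasts, but they are independent only where the groups have equal spread, which was not tested. Genes that move together are not independent of each other either, so the counts below are a description. The 162 genes that rose at least 2-fold had median recovery effects of 1.18 in scramble and 1.39 in siLonp1 cells, and a median difference of 0.22 with 120 above 0. Over all genes tested 51.2% lay above 0. The median difference of these genes was not computed with 1 library left out, so its dependence on a single library is not known. Without HS + REC siLonp1 replicate 1 the median over all genes was −0.030. Of the 162, 8 passed, all positive, against 0.558% of all tested genes positive and 0.149% negative. The 90 genes that fell at least 2-fold had medians of −1.28 and −1.25 and a median difference of 0.015 with 48 above 0. Of these, 8 passed, 2 positive and 6 negative. The median GC content was 48.7% for the 71 positive genes, 43.6% for the 19 negative ones and 48.3% over all tested, and the rank correlation of GC content with the difference was 0.115 across the 92.8% of genes with a value.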

How the data were processed

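RNAseq of 18 libraries of SW620 cells was used, 12 of them in the main comparison. Per the labels and the study's methods, the authors made stranded mRNA libraries, aligned paired-end reads to hg38 with STAR 2.7.3a and counted reads per UCSC gene with featureCounts in R 3.6.3. The deposited values are raw counts per gene. Counts in genes over 1 CPM in at least 3 of the 12 libraries (about 99.9% of the counts in the library that kept the least) were normalised with TMM and fitted in edgeR 4.0.16 (R 4.3.3, limma 3.58.1) with 1 mean per group, by the quasi-likelihood test, with a prior count of 0.125 for fold changes. CPM values use TMM-scaled library sizes. P-values were adjusted by Benjamini-Hochberg over all 12726 genes, and the call was FDR 0.05, with a 2-fold limit as a further step. Replicates are independent biological ones according to the study's methods. Replicate libraries differed by more than sampling noise (chi-square per degree of freedom 3.48 to 25.8). Gene positions are from GENCODE v44.

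The genes named were those past the threshold with the 10 largest differences and the 3 smallest p-values in each direction, LONP1, HSF1, HSF2, up to 4 members per gene list, and genes that moved in opposite directions in the arms. Other genes, such as the qRT-PCR set, FOS and EGR1, were chosen after their values were seen. Not every gene that the rule names is reported here. Members and lists were chosen with earlier results of these data known. On simulated data with 100 genes changed by 1 and 100 by 0.6 on the log2 scale, 94% and 69% were recovered, with 7 false calls. The simulated spread depended on the level of a gene alone. It held no spread particular to a gene, no GC deviation of a library and no other difference between groups. These shares may therefore not hold for the real libraries. Alternatives were DESeq2 1.42.0, the likelihood ratio test, other normalisations and filters, all 18 libraries, a replicate block, 1 library left out and, added after seeing the data, removal of a GC trend.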

Additional observations from a re-analysis of the deposited data

Results flagged for a closer look

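The recovery effect, log2(HS + REC/HS), differed between the siLonp1 and scramble arms for 71 genes in the positive and 19 in the negative direction (edgeR's quasi-likelihood test of the difference, Benjamini-Hochberg adjusted), which is why the following genes are listed. The difference was positive, on the log2 scale, for MMP25 1.54, NR3C1 1.33, KRTAP2-3 1.21, LONP1 1.21, CMYA5 1.19, KLF2 1.19, P2RY2 1.14 and ZNF579 1.12. The value of MMP25 is a description only, since it passed the filter on low values through a single group, where it was high. The difference was also positive for ZBTB45 1.12, CFL2 1.10, ZNF865 1.02, ZNF367 0.93, SP5 0.93, ZFPM1 0.87, ZNF827 0.85 and VLDLR 0.84, and for TFAP4 0.70, KLF6 0.59, ENC1 0.59, DUSP6 0.50, DUSP5 0.50 and PMEPA1 0.48. It was negative for VCL −0.55, CLK4 −0.57, ZC3H12A −0.62, KLHL15 −0.64, SCML1 −0.65 and RSRP1 −0.70, and for GOLGA8B −0.76, SCML2 −0.78, KPNA5 −0.78, EGR3 −0.87, TGFBR3 −1.30 and UBD −1.92.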

How the results depend on the processing

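The counts of 71 positive and 19 negative genes, and of 14 and 2 with the 2-fold limit, depended on the test and filter. DESeq2 gave 148 and 33, the likelihood ratio test 193 and 36 (30 and 4 with the 2-fold limit), all 18 libraries in 1 model 140 and 37, and no filter on low counts 289 and 43 (49 and 10). All 90 calls were kept under these. Removal of the GC trend, added after seeing the data, gave 128 and 47, with 9 positive at 2-fold, and kept 86 of 89. FDR 0.01 left 9 and 1, also 4 and 1 at 2-fold, and 1855 genes for recovery in scramble cells instead of 2866. CPM above 1 in all 12 libraries left 1 negative at 2-fold. Across the 4 groups, the deviations of same-numbered libraries correlated at −0.42 to 0.54 over 18 pairs, 7 of them over 0.1. Of the 12 libraries, 5 correlated best with their own number. Within an arm, HS and HS + REC libraries of the same number correlated at 0.34, −0.20 and 0.15 in scramble cells. In siLonp1 cells these correlations were 0.31, 0.10 and 0.14. The numbers were not taken to pair the samples of the 4 groups, and whether they pair libraries within an arm was not settled. A replicate block gave 60 and 17 (13 and 3), and 2722 and 3406 genes for recovery in scramble and siLonp1 cells, kept 72 of the 90 calls, and lost those of KLF2, ZNF579, ZFPM1 and CLK4 among the named genes. With 1 library left out, the counts ran from 21 to 190 and 6 to 24, from 6 to 57 and 2 to 4 at 2-fold, and from 2132 to 3018 and 2772 to 3732 for recovery. No called gene turned its direction, in fits that reuse the libraries by which the genes were called. Of uncalled genes, HSPB8 turned to −0.019 without HS + REC siLonp1 replicate 1 (range over the 12 fits to 0.46), HSF1 to −0.013 without HS + REC scramble replicate 2, −0.022 without HS + REC siLonp1 replicate 1 (to 0.13) and −0.078 with the GC trend removed, and HSF2 to 0.0026 and 0.032 without HS siLonp1 replicate 2 and HS + REC scramble replicate 2 (from −0.094). The causes were not tested. In simulation at the depth of these libraries, with a simpler spread than theirs, 69% of genes changed by 0.6 were recovered.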
